A study of Mus musculus with 8 samples.

Results

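Insulin-like growth factor genes were examined in injured skeletal muscle: the ligand Igf1, the receptors Igf1r and Igf2r, the messenger RNA-binding protein Igf2bp2 and the binding proteins Igfbp2 to Igfbp7. The 10 genes were a list of names, taken where the platform annotation gave a row to that gene alone. Of the 10, 9 had such a row, each with 1 row on the array, and all 9 passed the filter on dim rows. They were 9 of the 15007 genes tested. Igf2bp2 had no row naming it alone and was not analysed here.

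The samples were the whole tibialis anterior, a muscle of the lower leg, of male C57BL/6 mice, taken 8 days after a freezing injury made with a chilled metal probe held for 8 seconds. The ST2FL group carried the floxed ST2 gene and Foxp3-Cre, and the ST2WT group carried wild-type ST2 and the same Foxp3-Cre, so Cre was present in both. Each group had 4 samples, numbered 1 to 4, with 1 Affymetrix Mouse Gene 1.0 ST array each. They are called flox and WT arrays here. The mice were 10 weeks old by the sample labels and 2 months old by the series description. Foxp3-Cre acts in regulatory T cells, the cells in which ST2, the receptor for interleukin-33, was to be removed, whereas RNA came from all cells of the muscle. The comparison asks what ST2 on regulatory T cells does in muscle regeneration. Whether each sample was a separate animal is not stated in the labels. The p-values therefore speak only of sample-to-sample spread, which could be technical. The deletion of ST2 was not analysed here.

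Insulin-like growth factor 1 drives myoblast proliferation, myoblast fusion and fibre growth, and in injured muscle it is made by macrophages, fibroblasts and muscle cells. It signals through the tyrosine kinase Igf1r to phosphatidylinositol 3-kinase, Akt and mTOR, which restrains the FoxO transcription factors and their ubiquitin ligase targets. Igf2r takes up insulin-like growth factor 2 for degradation in lysosomes. The secreted binding proteins hold the ligands outside cells, and proteases release them. Igfbp7 binds these ligands weakly and is a product of vascular endothelium.

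Across the 4 flox and 4 WT arrays, 0 of the 9 genes differed between genotypes by limma with the Benjamini-Hochberg method applied to all genes, and 1 of 9, Igfbp7, had an unadjusted p under 0.05 with the higher mean in flox. Over all 15007 genes 0% passed the adjusted threshold of 0.05 and 3.79% had an unadjusted p under 0.05, 2.03% with the higher and 1.77% with the lower mean in flox. For 0 of the 9 genes did the groups stand apart without overlap, against 1.97% of all genes. The mean was higher in flox for 6 of the 9 and lower for 3, with a median difference of 0.06 on the log2 scale, where 48.8% of all genes had the higher mean in flox. The median difference of all genes was -0.002. Without flox array 1 the median of the 9 was 0.02, with 5 higher and 4 lower, and without flox array 4 it was 0.12, with 7 higher and 2 lower. The larger movement of Igf1, Igf1r, Igfbp4 and Igfbp6 was between arrays of the same genotype.

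The windows around the annotated transcription starts of the genes that the results turn on are shown first: Igf1, Igf1r and Igfbp4, whose levels followed one another across arrays, and Igfbp7, which had the smallest p. They are RefSeq sequences of assembly GRCm38.p6, each with 250 bases before and 50 bases after the start, written 5′ to 3′ along the gene. Matches to 2 motifs are in capitals, the GC box GGGCGG and the TATA box TATAAA, both searched on both strands.
Igf1, chr10:87860861-87861160, plus strand: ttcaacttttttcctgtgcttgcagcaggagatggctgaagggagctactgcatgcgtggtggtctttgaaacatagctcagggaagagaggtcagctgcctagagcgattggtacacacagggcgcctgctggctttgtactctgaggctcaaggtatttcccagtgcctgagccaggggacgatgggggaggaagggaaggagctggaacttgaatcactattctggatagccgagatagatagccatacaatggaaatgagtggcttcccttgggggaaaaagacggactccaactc
Igf1r, chr7:67952007-67952306, plus strand: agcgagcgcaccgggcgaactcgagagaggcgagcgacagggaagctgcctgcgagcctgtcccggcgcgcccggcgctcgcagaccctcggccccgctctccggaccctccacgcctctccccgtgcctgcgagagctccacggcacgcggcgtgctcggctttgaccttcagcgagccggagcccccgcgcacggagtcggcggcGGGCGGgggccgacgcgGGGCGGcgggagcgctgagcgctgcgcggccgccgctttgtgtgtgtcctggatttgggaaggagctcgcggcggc
Igfbp4, chr11:99040994-99041293, plus strand: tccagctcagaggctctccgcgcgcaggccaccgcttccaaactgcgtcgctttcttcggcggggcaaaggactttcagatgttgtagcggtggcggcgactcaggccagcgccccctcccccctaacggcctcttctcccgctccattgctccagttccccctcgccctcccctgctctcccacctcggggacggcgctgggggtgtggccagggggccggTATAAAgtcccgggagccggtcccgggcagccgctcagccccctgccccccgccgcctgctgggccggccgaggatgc
Igfbp7, chr5:77407996-77408295, minus strand: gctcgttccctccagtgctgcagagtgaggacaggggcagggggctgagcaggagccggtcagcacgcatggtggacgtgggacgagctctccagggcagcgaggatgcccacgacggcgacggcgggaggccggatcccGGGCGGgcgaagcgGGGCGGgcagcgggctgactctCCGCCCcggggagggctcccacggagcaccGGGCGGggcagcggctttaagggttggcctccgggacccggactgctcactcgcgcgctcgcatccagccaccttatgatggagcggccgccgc
The Igf1r window held 2 GC boxes, the Igfbp7 window 4 and the Igfbp4 window a TATA box, while neither motif occurred in the Igf1 window. All 10 listed genes had such a window, and Igfbp2 had a pair of them. Of these 11 windows 5 held a GC box and 2, those of Igfbp4 and Igfbp6, the TATA box letters. The Igfbp6 match was on the opposite strand. Matches describe the letters only, not a working site. Of all 32851 windows of the same length, 35.7% held a GC box and 13.6% a TATA box. The GC content was 76.0% in the Igf1r window, 71.3% in that of Igfbp4, 73.3% in that of Igfbp7 and 52.3% in that of Igf1, against a median of 52.7% over all windows. Igf1, Igf1r and Igfbp4 thus shared neither motif.

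The ligand Igf1 overlapped between genotypes. Its log2 intensity was 10.71, 10.57, 10.50 and 10.28 on flox arrays 1 to 4, and 10.51, 10.76, 10.12 and 10.43 on WT arrays 1 to 4. The highest and the lowest value were both on WT arrays, 2 and 3. The group means were 10.52 ± 0.18 in flox and 10.46 ± 0.27 in WT (SD, n = 4 each). The difference, flox minus WT, was 0.06 (limma SE 0.13, 95% interval -0.23 to 0.35, adjusted p 0.947), and without WT array 3 it was -0.05.

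Igf1r, the receptor through which the ligand signals, had log2 intensities of 9.22, 9.01, 8.89 and 8.73 on flox arrays 1 to 4 and of 8.90, 8.96, 8.73 and 8.66 on WT arrays 1 to 4. Flox arrays 1 and 2 lay above all WT arrays and flox arrays 3 and 4 among them. The difference was 0.15 (limma SE 0.11, 95% interval -0.09 to 0.38, adjusted p 0.912), and 0.06 without flox array 1 and 0.23 without flox array 4. Igf2r, the scavenging receptor, read 9.93, 9.97, 10.15 and 9.95 on flox arrays 1 to 4 and 9.93, 9.79, 9.89 and 9.96 on WT arrays 1 to 4. Flox array 3 was the highest and WT array 2 the lowest. The difference of Igf2r was 0.11 (limma SE 0.07, 95% interval -0.04 to 0.25, adjusted p 0.912), and 0.06 without flox array 3.

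**Figure D1:**
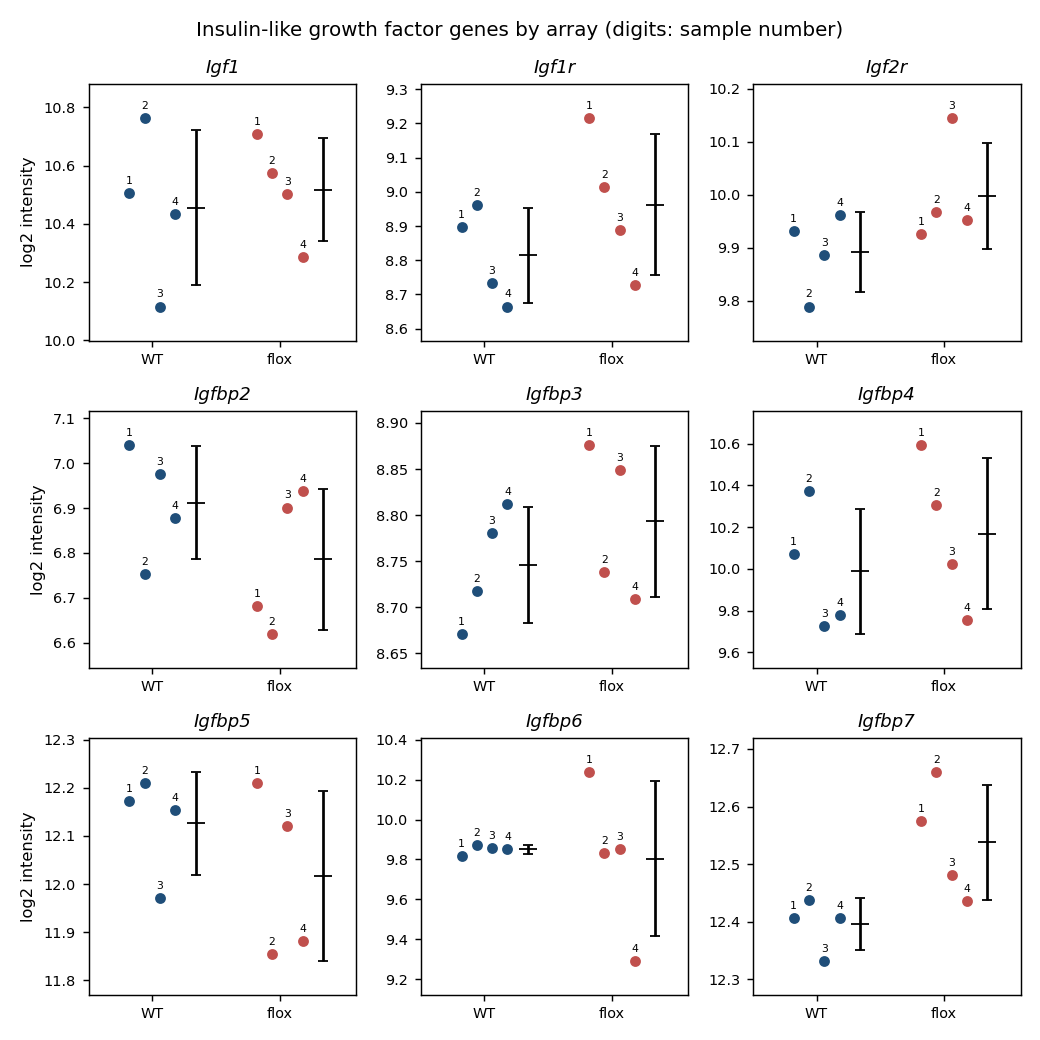
Log2 intensity of the 9 genes on each array, 1 panel per gene with its own vertical scale. Points are arrays with their sample number, and the bar to the right of each group is the mean with its SD (n = 4). The groups overlap in every panel, and the WT values of Igfbp6 lie within 9.82 to 9.87 while its flox values run from 9.29 to 10.24.

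Igfbp7 came closest to separating the genotypes. Its log2 intensity was 12.57, 12.66, 12.48 and 12.436 on flox arrays 1 to 4 and 12.41, 12.437, 12.33 and 12.41 on WT arrays 1 to 4. Flox arrays 1 to 3 lay above all WT arrays, and flox array 4 lay just below WT array 2. The means were 12.54 ± 0.10 and 12.40 ± 0.04 (SD, n = 4 each), a difference of 0.14 (limma SE 0.06, 95% interval 0.003 to 0.28) or 1.10-fold. The limma p was 0.0464 unadjusted and 0.912 adjusted over all genes, so the difference did not pass the test. Its unadjusted p was 0.0650 with quantile normalization, 0.0537 with median centring and 0.0501 with cyclic loess, and 0.0165 to 0.137 over all 18 alternatives, under 0.05 in 8 of them. The difference was 0.10 when flox array 2 was left out and 0.18 when flox array 4 was left out.

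Endothelial and T cell markers are given beside Igfbp7, since endothelium is a known source of it and the genotype addresses regulatory T cells. Of the 8 endothelial markers, all tested, 6 had the higher mean in flox, with a median difference of 0.09. Such a count was not particular to endothelium. It was 9 of 10 for macrophage, 6 of 8 for regenerating fibre and 5 of 7 for pericyte and smooth muscle markers. It was 3 of 9 for mature fibre, 1 of 4 for adipocyte and 0 of 4 for skin keratinocyte markers. The mean of the centred endothelial marker levels lay between -0.04 and 0.10 on the flox arrays and between -0.11 and 0.03 on the WT arrays. Their summed intensity ran from 7390 to 8364 in flox and from 7180 to 7757 in WT. Of 8 T cell markers 6 were tested, and 5 had the higher mean in flox. Their centred mean was 0.11, 0.33, 0.12 and -0.06 on flox arrays 1 to 4 and -0.17 to -0.08 on the WT arrays. Every flox array thus lay above every WT array, though 0 of the 6 genes stood apart between the groups without overlap. The gap was narrow, with -0.058 on flox array 4 and -0.080 on WT array 4. Cd3g had the largest difference of the 6, 0.85, and so weighed most in this mean. It read 7.63, 7.92, 7.36 and 6.27 on flox arrays 1 to 4 and 6.32 to 6.60 on the WT arrays, close to the filter. The highest T cell mean was on flox array 2, as for Igfbp7 and for the mean of the 7 pericyte and smooth muscle markers (0.11). The endothelial mean was instead highest on flox array 1, at 0.10 against 0.08 on flox array 2. The fibroblast mean was highest on flox array 1 too (0.30). The summed intensity of the 6 T cell markers ran from 911 to 1165 in flox and from 828 to 873 in WT. Cd3g, Cd4 and Il7r had a limma p under 0.05 unadjusted, where 3.79% of all genes did, and 0 of the 6 passed after adjustment. The marker lists were chosen with earlier results of these data known, so an excess over that share cannot be read as a result. Foxp3, which marks regulatory T cells, differed by -0.01 (SE 0.08), and Cd3d, below the filter, by -0.10. The part of either cell type in the Igfbp7 difference was not tested. In bulk muscle, more cells of a type and more RNA per cell cannot be told apart.

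Cd93, an endothelial surface receptor that binds Igfbp7, had the smallest p among the 3 binding protein receptors on the list. Its log2 intensity was 11.09, 11.28, 11.13 and 11.11 on flox arrays 1 to 4 and 10.91, 10.90, 10.90 and 11.10 on WT arrays 1 to 4. WT array 4 alone reached the flox range. The difference was 0.20 (limma SE 0.07, 95% interval 0.05 to 0.35), or 1.15-fold, with a limma p of 0.0148 unadjusted and 0.912 adjusted over all genes. The other two receptors were Tmem219, which binds Igfbp3 (0.12, SE 0.08; 0.07 without flox array 1), and the endocytic receptor Lrp1 (0.08, SE 0.10; 0.17 without flox array 4 and 0.02 without flox array 1). WT array 4 also held the highest level of skin keratinocyte genes, with a mean of the 4 tested markers of 1.57 against -0.24 to -0.16 on the other WT arrays. Its endothelial marker mean of 0.03 was the highest of the WT arrays as well. The part of either in the Cd93 value was not tested. Without WT array 4 the Cd93 difference was 0.25.

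Igfbp4, a binding protein that inhibits the ligand until the protease Pappa cleaves it, spanned 0.87 on the log2 scale over the 8 arrays. It read 10.60, 10.31, 10.02 and 9.75 on flox arrays 1 to 4 and 10.07, 10.37, 9.73 and 9.78 on WT arrays 1 to 4. The lowest values of the genotypes were alike, and the highest was on flox array 1. The difference of 0.18 (limma SE 0.19, 95% interval -0.23 to 0.59, adjusted p 0.912) had the widest interval of the 9 genes. Leaving out flox array 1 brought it to 0.04, and leaving out flox array 4 to 0.32.

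Igfbp6, a binding protein with a preference for insulin-like growth factor 2, differed little in mean but much in spread. Its log2 intensity was 10.24, 9.83, 9.85 and 9.29 on flox arrays 1 to 4 and 9.82, 9.87, 9.86 and 9.85 on WT arrays 1 to 4. Flox array 1 lay above and flox array 4 below every WT array, while flox arrays 2 and 3 read like WT. The SD was 0.39 in flox and 0.02 in WT, a ratio of 16.9, and 24 of the 15007 genes (0.160%) had a ratio at least as large. The median gene had an SD of 0.11 in flox and 0.08 in WT. This spread was noticed in the data and is given without a test. The difference of the means was -0.05 (limma SE 0.16, 95% interval -0.39 to 0.30, adjusted p 0.967), and it moved to 0.12 when flox array 4 was left out and to -0.19 when flox array 1 was.

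Markers of fibroblasts and fibro-adipogenic progenitors, the interstitial cells that make most muscle matrix, were uneven over the same flox arrays. The mean of the 9 tested markers of 10 listed, centred per gene, was 0.30, 0.09, 0.12 and -0.39 on flox arrays 1 to 4 and lay between -0.10 and 0.10 on the WT arrays. Their summed intensity ran from 20541 to 28233 in flox and from 23189 to 25694 in WT. Pi16, a marker of adventitial fibroblasts, had the widest range of the 9. It read 9.76 on flox array 1 and 8.20 on flox array 4, with 9.19 to 9.37 on the WT arrays. Col1a1 did not follow this course, with 12.55, 12.52, 12.78 and 12.51 on flox arrays 1 to 4 and 12.37 to 12.66 on the WT arrays. The macrophage list of 10 markers, all tested, had means of 0.37, 0.37, 0.03 and -0.47 on flox arrays 1 to 4 and of -0.19 to 0.08 on the WT arrays. Its summed intensity ran from 8693 to 14091 in flox and from 9860 to 12102 in WT. The part of these cells in the values of Igfbp4 and Igfbp6 was not tested.

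**Figure D2:**
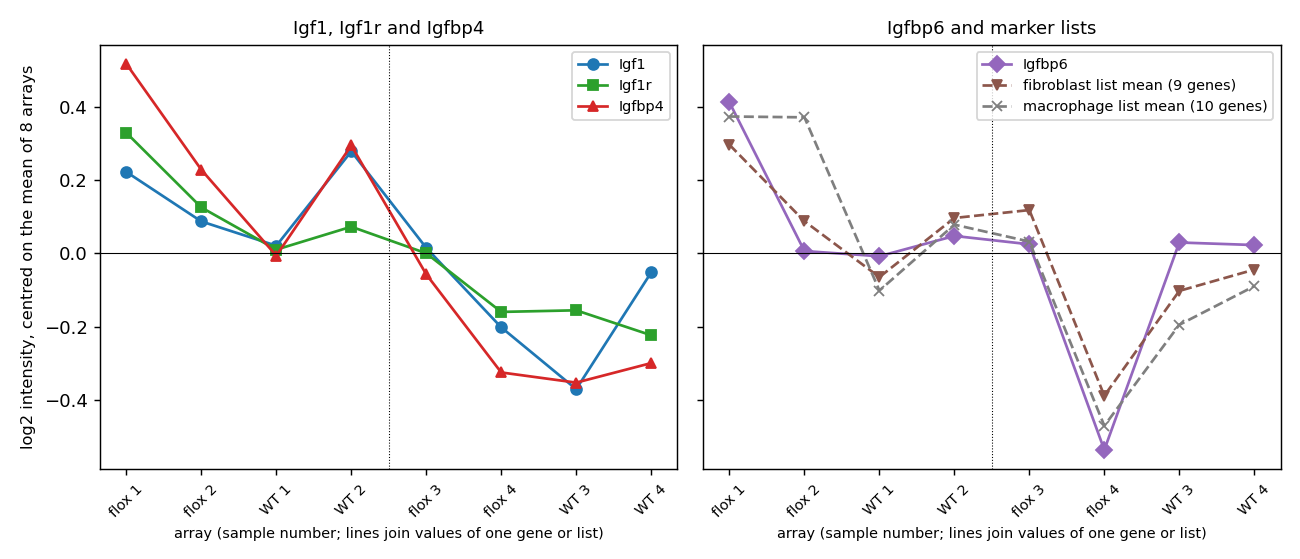
Log2 intensity centred on the mean of the 8 arrays (vertical axis) by array (horizontal axis), with samples numbered 1 and 2 left of the dotted line and 3 and 4 right of it. Left, Igf1, Igf1r and Igfbp4 are higher on all arrays numbered 1 and 2 than on any numbered 3 or 4. Right, Igfbp6 and the means of the fibroblast (9 genes) and macrophage (10 genes) markers have their lowest point on flox array 4.

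The other binding proteins were Igfbp5, Igfbp2 and Igfbp3, which spanned 0.36, 0.42 and 0.21 on the log2 scale over the 8 arrays, against 0.33 for Igfbp7. Igfbp5, a product of muscle and stromal cells that binds matrix, read 12.21, 11.85, 12.12 and 11.88 on flox arrays 1 to 4 and 12.17, 12.21, 11.97 and 12.15 on WT arrays 1 to 4. Flox arrays 2 and 4 were the lowest of the 8, and the difference was -0.11 (limma SE 0.09, 95% interval -0.31 to 0.09, adjusted p 0.912), with -0.06 without flox array 2 and -0.17 without flox array 1. Igfbp2 read 6.68, 6.62, 6.90 and 6.94 on flox arrays 1 to 4 and 7.04, 6.75, 6.98 and 6.88 on WT arrays 1 to 4. Flox arrays 1 and 2 were the lowest. Its levels lay close to the filter, a log2 value of 6.35, and the difference was -0.13 (limma SE 0.09, 95% interval -0.33 to 0.07, adjusted p 0.912), with -0.07 without flox array 2. Igfbp3, the main carrier of the ligands in blood, read 8.88, 8.74, 8.85 and 8.71 on flox arrays 1 to 4 and 8.67, 8.72, 8.78 and 8.81 on WT arrays 1 to 4. Its range was the smallest of the 9 genes, and its difference was 0.05 (limma SE 0.06, 95% interval -0.09 to 0.18, adjusted p 0.920). Leaving out flox array 1 gave 0.02 for Igfbp3, leaving out flox array 4 gave 0.08, and quantile normalization gave 0.01.

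Igf1, Igf1r and Igfbp4 followed one another across the arrays. Of the 36 pairs among the 9 genes, 2 passed 0.05 in an exact permutation test of Pearson's r over the 8 arrays after adjustment over the 36 pairs. They were Igf1r with Igfbp4 (r = 0.964, exact permutation p = 5.46e-04, adjusted p 0.0196; rho = 0.881, exact permutation p = 0.00724, adjusted p 0.129) and Igf1 with Igfbp4 (r = 0.891, exact permutation p = 0.00228, adjusted p 0.0411; rho = 0.976, exact permutation p = 3.97e-04, adjusted p 0.0143). All were two-sided tests that treated the arrays as exchangeable. Without the 2 arrays farthest from the median of the first gene, r was 0.965 and 0.943. Igf1 and Igf1r themselves gave r = 0.766 (exact permutation p = 0.0280, adjusted p 0.243; rho = 0.833, exact permutation p = 0.0154, adjusted p 0.138), and r = 0.902 without the 2 farthest arrays. Igfbp2 ran opposite to Igfbp7 (r = -0.849, exact permutation p = 0.00613, adjusted p 0.0735; rho = -0.857, exact permutation p = 0.0107, adjusted p 0.129). That relation weakened to r = -0.412 without flox arrays 1 and 2 and so rested on them. The arrays of 1 genotype, or of 1 pair of sample numbers, are too few for a correlation of their own.

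These 3 genes divided the arrays by sample number rather than by genotype. Each was higher on all 4 arrays numbered 1 and 2 than on any numbered 3 or 4, as were 4.54% of all genes, by 0.30 for Igf1, 0.27 for Igf1r and 0.52 for Igfbp4. What the numbers stand for is not given in the labels, and this split was noticed in the data. Genes that share such a split tend to correlate with one another through it. The permutation p-values of their pairs therefore do not show a relation particular to these 3 genes. Whether the pairs were related beyond the split was not tested, nor how often other pairs of genes reach such an r.

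The genes most like each member were taken as those with the highest Pearson r over the same 8 arrays among all genes tested, a search that returns high values for any gene. For Igf1 they were the membrane-bound matrix metalloproteinase Mmp14 (r = 0.982), 2610005L07Rik (r = 0.981) and Pdxk (r = 0.969). For Igf1r they were Med13l (r = 0.984), the integrin chain Itgb3 (r = 0.980) and Fam193a (r = 0.974). For Igfbp4 they were Rfx3 (r = 0.991), Gxylt2 (r = 0.988) and Osmr, the oncostatin M receptor (r = 0.987). For Igfbp6 they were Crebrf (r = 0.998), Trp53inp1 (r = 0.989) and Sema3c (r = 0.983), and for Igfbp7 Atp1b3 (r = 0.985), Tax1bp3 (r = 0.979) and Tram2 (r = 0.978). For Igf2r they were Cd3e, a chain of the T cell receptor complex (r = 0.978), Pdzd11 (r = 0.940) and Mir485 (r = 0.939). The first match of Igfbp2 was Gm7932 (r = 0.970), that of Igfbp3 Dgat1 (r = 0.975) and that of Igfbp5 Ttll4 (r = 0.962). All are descriptions over 8 arrays that were normalized together, with no test.

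The rest of the pathway was read from 63 further genes in 7 lists, of which 56 were tested, 4 had no row naming them alone and 3 lay below the filter. By limma 0 of the 56 passed after adjustment over all genes. An unadjusted limma p under 0.05 was reached by 7, 2 with the higher mean in flox and 5 with the lower, where 3.79% of all genes did. The lists were written with earlier results of these data known, so an excess over that share cannot be read as a result. Of the 56, 22 had the higher mean in flox and 34 the lower, with a median difference of -0.02, and -0.01 without WT array 3.

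Among ligands and carriers, Igf2, the fetal growth factor that regenerating fibres express again, differed by 0.10 (SE 0.07; 0.05 without flox array 4, and 0.15 when flox array 1 was left out), with 11.56 to 11.84 on the flox arrays and 11.49 to 11.69 on the WT arrays. Ins2, an insulin gene, read 6.33 to 6.47 in flox and 6.57 to 6.62 in WT, close to the filter, and was the only one of the 56 genes whose groups did not overlap, where 1.97% of all genes did not (-0.16, SE 0.05, limma adjusted p 0.912). The insulin receptor Insr differed by -0.02 (SE 0.07; 0.03 without flox array 1) and Igfbp1 by -0.11 (SE 0.07; -0.05 without flox array 1 and -0.06 with quantile normalization). Of the 7 tested genes in this list, 1 had the higher mean in flox and 6 the lower. With the filter at the 50th percentile 2 genes of the list remained, 1 higher and 1 lower in flox. Of the proteases that cut binding proteins and their inhibitors, 4 of 7 had the higher mean in flox. Pappa differed by 0.09 (SE 0.06; 0.06 without flox array 3), its inhibitor Stc1 by 0.14 (SE 0.08; 0.07 without flox array 2), the metalloprotease Adam12 by 0.21 (SE 0.15; 0.11 without flox array 2 and 0.33 without flox array 4) and the serine protease Htra3 by -0.11 (SE 0.14; 0.04 without flox array 4). The messenger RNA-binding relatives Igf2bp1 and Igf2bp3, and Lin28b, had means below the filter in this muscle, with highest single values of 6.48, 6.21 and 5.27. Hmga2, a transcription regulator upstream of Igf2bp2, differed by -0.09 (SE 0.08; -0.04 without WT array 2 and -0.15 without flox array 4).

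Downstream of the receptor, 24 of 26 listed signalling genes were tested, 11 with the higher and 13 with the lower mean in flox, with a median difference of -0.02, and 0.003 without flox array 4. With quantile normalization the higher mean was in flox for 8 of these 24, and for 2 of the 7 ligands and carriers, 5 of the 7 proteases and inhibitors and 1 of the 6 FoxO and atrophy targets, so these counts depend on the scaling. The adaptor Shc1 differed by 0.17 (SE 0.07, limma p 0.0275 unadjusted), with 8.60 to 8.77 in flox and 8.46 to 8.66 in WT. Foxo4 differed by -0.19 (SE 0.07, limma p 0.0302 unadjusted), with 8.43 to 8.65 in flox and 8.56 to 8.81 in WT. Both had a limma adjusted p of 0.912. The receptor-binding inhibitor Grb10 differed by 0.17 (SE 0.08; 0.11 without flox array 3), the kinase Akt1 by 0.11 (SE 0.06) and the docking protein Irs1 by -0.15 (SE 0.15; -0.05 without WT array 4 and -0.26 without flox array 3). Irs2 (0.003, SE 0.06), Foxo1 (-0.02, SE 0.06) and Foxo3 (-0.02, SE 0.06) lay near 0. Of the 6 FoxO and atrophy targets, 4 had the lower mean in flox. Klf15, a regulator of amino acid breakdown, differed by -0.19 (SE 0.07, limma p 0.0267 unadjusted, 0.912 adjusted), and the muscle ubiquitin ligases Fbxo32 and Trim63 by -0.10 (SE 0.10) and -0.08 (SE 0.13). Without WT array 3, which had the highest level of each, Fbxo32 differed by 0.002 and Trim63 by 0.03. Bnip3 differed by -0.03 (SE 0.06).

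**Figure D3:**
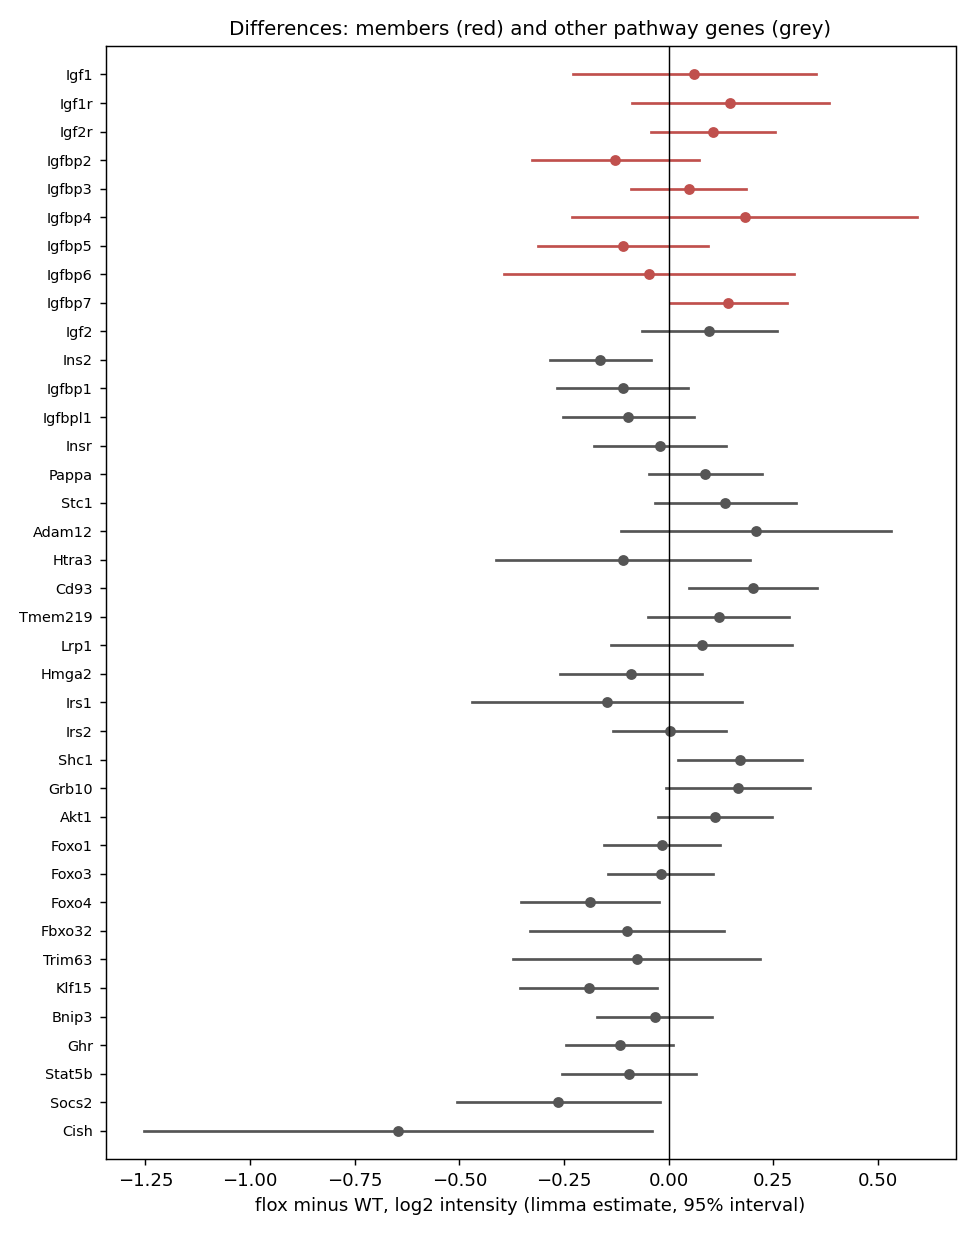
Difference of log2 intensity, flox minus WT (horizontal axis), for the 9 members in red and 29 other pathway genes in grey, with limma's 95% interval. Of the members, the interval of Igfbp7 alone excludes 0, from 0.003 to 0.28, and the interval of Cish runs from -1.25 to -0.04.

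Growth hormone induces Igf1 through its receptor Ghr and the transcription factors Stat5a and Stat5b, and the inhibitors Cish and Socs2 are standard Stat5 targets. In this list of 8 genes, all tested, 7 had the lower mean in flox, with a median difference of -0.08. Leaving out flox array 3 brought the median to -0.04, and leaving out flox array 1 to -0.12. The count of 7 was also 7 under quantile normalization, median centring and cyclic loess, and it was 6 to 8 when single arrays were left out. The list was written with earlier results of these data known, and 0 of the 8 passed after adjustment.

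Cish had the largest difference of any pathway gene named. Its log2 intensity was 7.93, 7.36, 8.27 and 7.70 on flox arrays 1 to 4 and 8.66, 8.67, 7.59 and 8.93 on WT arrays 1 to 4. WT arrays 1, 2 and 4 lay above all flox arrays, and WT array 3 lay below flox arrays 1, 3 and 4. The difference was -0.65 (limma SE 0.27, 95% interval -1.25 to -0.04, p 0.0392 unadjusted, 0.912 adjusted). It was -0.94 without WT array 3 (limma p 6.06e-04 unadjusted, 0.980 adjusted) and -0.49 without WT array 4. Over all 18 alternatives the lowest limma adjusted p of Cish was 0.285.

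Socs2, like Cish, was lowest on array 3 and highest on array 4 among the WT arrays. It read 9.74, 9.52, 9.76 and 9.33 on flox arrays 1 to 4 and 9.91, 9.86, 9.63 and 10.00 on WT arrays 1 to 4, so that WT array 3 again lay within the flox range. The difference was -0.26 (limma SE 0.11, 95% interval -0.51 to -0.02, p 0.0355 unadjusted, 0.912 adjusted). Its second row on the array differed by -0.17. Ghr read 11.11, 10.96, 10.96 and 11.02 on flox arrays 1 to 4 and 11.14, 11.14, 11.06 and 11.17 on WT arrays 1 to 4. Flox array 1 alone overlapped the WT range. The difference of Ghr was -0.12 (limma SE 0.06, p 0.0696 unadjusted, 0.912 adjusted), and that of Stat5b -0.09 (SE 0.07; -0.05 without WT array 3 and -0.14 without flox array 1). Igf1 itself, with a difference of 0.06, was lowest on WT array 3 as well.

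The window around the start of Cish is shown because its difference was the largest and because the motif TTCNNNGAA, read by STAT factors and the same on both strands, occurs in it. Capitals mark this motif and the GC box, in RefSeq sequence of GRCm38.p6 as above.
Cish, chr9:107296409-107296708, plus strand: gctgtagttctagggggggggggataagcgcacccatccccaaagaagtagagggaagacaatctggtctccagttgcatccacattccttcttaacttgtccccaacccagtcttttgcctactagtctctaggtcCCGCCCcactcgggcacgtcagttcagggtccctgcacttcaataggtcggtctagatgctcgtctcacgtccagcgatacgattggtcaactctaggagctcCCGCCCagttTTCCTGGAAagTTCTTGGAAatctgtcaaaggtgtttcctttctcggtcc
The motif began at bases 251 and 262 of the window, counted from 1 at its 5′ end, where base 251 is the annotated start. It occurred in 8.30% of all windows and in 0 of the 11 windows of the listed genes. These matches describe the letters only.

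**Figure D4:**
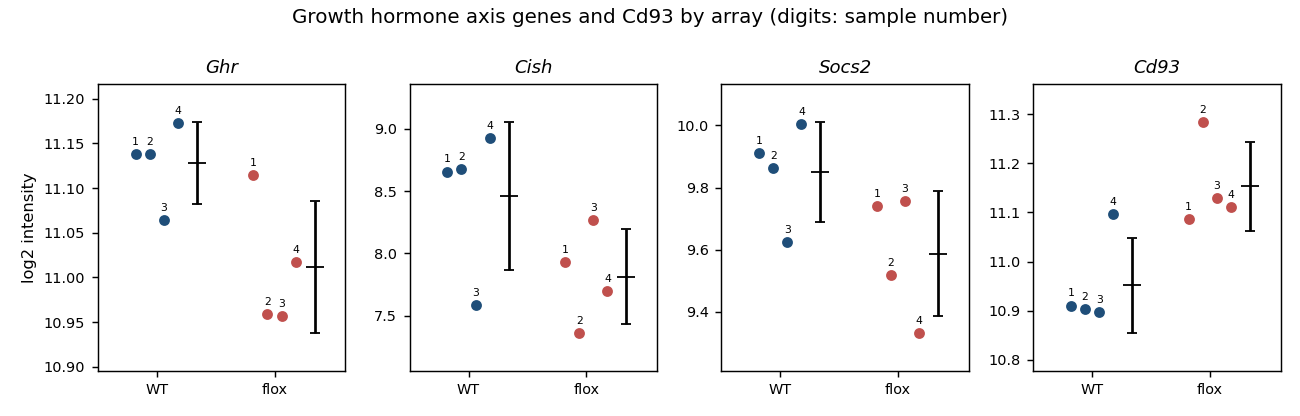
Log2 intensity of Ghr, Cish, Socs2 and Cd93 on each array, with a vertical scale for each panel. Points are arrays with their sample number, and the bar beside each group is the mean with its SD (n = 4). WT array 3 is the lowest WT array for Ghr, Cish and Socs2, and WT array 4 is the highest for Cd93.

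Median intensity per array lay between 185 and 189. Of the mature fibre markers, Acta1, skeletal actin, had log2 intensities of 13.65 to 13.86 over the arrays and Ckm, muscle creatine kinase, of 13.60 to 13.74. Myh2 (11.48 to 12.55) and Mylpf (11.70 to 12.19) of the same list were dimmer. Arrays correlated across genes with r of 0.976 to 0.995 within a genotype and of 0.985 to 0.9945 between genotypes. Flox array 1 had the lowest regenerating fibre (-0.31) and satellite cell and myoblast (-0.07) marker means of the 8 arrays. Flox array 4 had the lowest macrophage and fibroblast marker means of the 8 arrays. Without it 2 genes in all passed the adjusted threshold, against 0 with all arrays, and 0 of them were among the 9 genes described. The differences of the 9 genes without it ran from -0.18 for Igfbp2 to 0.32 for Igfbp4.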

How the data were processed

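TriZol RNA of 8 muscle samples was amplified (Ambion kit), biotin-labelled and run on 8 Affymetrix Mouse Gene arrays (1.0 ST), per the labels' protocols. The authors deposited probeset intensities made with RMA in Affymetrix Power Tools, per the submitters' processing notes. For versions, genome build and row filter, nothing was given in the sources used here. RMA assumes that most genes do not change and compresses changes of dim probesets. The deposited intensities are linear (5.81 to 19080), and log2 was taken without a pseudocount. The number of arrays limits the precision.

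Of 24922 rows, 21425 had 1 gene symbol in the platform annotation, 1399 several and 2098 none. Of those with 1 symbol, 21347 matched RefSeq genes of GRCm38.p6, and 0 symbols changed. Rows with a mean below the 25th percentile (log2 6.35) were left out and the brightest row per gene was kept, which left 15007 genes. No array shared more than 14 values with another. Levels of different genes are not compared, since probes differ in response.

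The genotype comparison used limma 3.58.1 under R 4.3.3 (group alone, empirical Bayes, Benjamini-Hochberg over all genes, threshold 0.05). SE, intervals and unadjusted p-values are limma's. Member pairs were tested by exact permutation of 8 arrays. On simulated data for this comparison over 15007 genes, 22 of 50 genes changed 1.25-fold and 45 of 50 changed 1.5-fold were recovered, with 10 false calls. The median SE of all genes was 0.075, against 0.185 for Igfbp4, 0.156 for Igfbp6, 0.131 for Igf1 and 0.273 for Cish. Recovery of genes with so large an SE was not estimated apart, so these counts are no rate for them. Alternatives were other filters, normalizations, a pseudocount of 16, row choice, prior, array weights, a replicate block and leaving out each array.

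The members, the 7 pathway lists and the marker lists were chosen with earlier results of these data known. Pathway genes named were 14 fixed by name, those without overlap and up to 4 per list with the smallest p. Further signalling genes are given as counts.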

Additional observations from a re-analysis of the deposited data

Results flagged for a closer look

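Among the 9 members and 29 named pathway genes, 76 groups of 4 arrays were searched for a single array far from the other 3, and 5 were found, where chance gives about 1 in 20 groups. None was a member. Cd93 read 11.10 on WT array 4 against 10.90 to 10.91 on the other WT arrays. Lrp1 read 10.83 on WT array 2 against 10.67 to 10.70. Ins2 read 6.62 on WT array 1 against 6.57 to 6.58, a gap of a few hundredths on the log2 scale. Igfbpl1 read 7.05 on WT array 3 against 6.85 to 6.88. Hmga2 read 7.63 on flox array 4 against 7.38 to 7.41 on the other flox arrays.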

How the results depend on the processing

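Over 18 alternatives, 0 of the 9 members passed the adjusted threshold in limma, and the count of all genes that passed stayed at 0, except that leaving out single arrays gave 0 to 2, with 2 without flox array 4. The count of genes at an unadjusted p under 0.05 was 569, and it was 3012 without flox array 4, 1932 with array weights, 344 with the filter at the 50th percentile, 278 without WT array 1 and 245 without flox array 2. The count of members at that level was 1, and 0 to 2 over the alternatives. Of 677 alternative differences for the 9 members and 29 pathway genes, 658 kept their direction and side of the threshold and 19, of 8 genes, changed sign. The other filters, the prior and the replicate block cannot change a difference here, so its direction under them was fixed in advance. Row choice can change it only for genes with several rows. The 658 therefore overstate how stable the directions were. Igfbp6 was at 0.0068 with array weights, Insr at 0.024 with array weights, and Irs2 at -0.012 with quantile normalization, -0.0067 with cyclic loess and -0.045 with array weights. Leaving out single arrays gave -0.052 to 0.164 for Igf1, -0.191 to 0.125 for Igfbp6, -0.059 to 0.030 for Insr, -0.033 to 0.034 for Irs2, -0.064 to 0.014 for Foxo1, -0.182 to 0.0018 for Fbxo32, -0.185 to 0.030 for Trim63 and -0.207 to 0.045 for Htra3. The cause was not tested.

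Sample numbers do not pair the samples by the labels, and the deviations of same-numbered samples correlated at -0.002, 0.352, 0.253 and 0.042 across genes for numbers 1 to 4. With the replicate block, 0 members passed in limma, 694 genes had an unadjusted p under 0.05, and Igfbp7 had an unadjusted p of 0.0483. Its difference of 0.14 stayed the same by design, since every number occurs in both groups. Igfbp2 and 6 dim genes among the 29 named pathway genes gave no value under the stricter filter. Signals of Igfbp2, Ins2 and Igfbp1 lay near the filter, where RMA compresses changes.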
